A study of Mus musculus with 12 samples.

Results

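Ackr4 and Ackr3 encode atypical chemokine receptors, and their RNA was followed through 12 libraries of sorted mouse prostate cells. They are 2 of the 48795 genes in the deposited count table, found there by Ensembl identifier (ENSMUSG00000079355 for Ackr4 and ENSMUSG00000044337 for Ackr3). Ackr4 was selected on its measured counts in these same libraries, for a LY6D+ to LY6D- difference that changed with SCA1; which SCA1 levels were set against each other is not stated. Its levels are therefore given as a description, without a test, and Ackr3, which was added as a relative, was tested.

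The cells came from the prostates of wild-type C57BL/6 mice aged 6 to 8 weeks. Cells that carried CD31, CD45 or Ter119, the surface proteins of endothelium, leukocytes and red cells, were gated out, and luminal cells, the secretory lining of the gland, were sorted into 6 populations. These were LY6D+ SCA1low, LY6D+ SCA1int and LY6D+ SCA1high, and LY6D- SCA1low, LY6D- SCA1int and LY6D- SCA1high, where int means intermediate and SCA1 is the surface product of Ly6a. Each population had 2 libraries made with the QuantSeq 3′ kit, which reads the 3′ ends of polyadenylated RNA. All mice had the same genotype and strain and no treatment is named. The series text calls the replicates biological, but no label says whether each was 1 animal or several. A p-value here reflects only the spread between libraries of 1 population, which the fit estimated in part from other genes.

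Chemokines are small secreted proteins that attract cells through receptors coupled to G proteins. Atypical receptors bind chemokines without that coupling, recruit arrestins, and carry the ligand into the cell, where it can be degraded, so that they lower or shape chemokine gradients. ACKR4 takes up CCL19, CCL21 and CCL25 and is known from lymphatic endothelium, thymic epithelium and keratinocytes. ACKR3 takes up CXCL12 and CXCL11, the ligands of CXCR4 and CXCR3, and also binds adrenomedullin and opioid peptides. ACKR3 has also been studied in prostate cancer cells.

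A stretch just after the third transmembrane helix is known to take part in G protein coupling of signalling chemokine receptors and to be altered in atypical ones. Its coding sequences are shown so that Ackr4 and Ackr3 can be set beside the signalling receptors that share their ligands. They are coding strands from GENCODE M21 on GRCm38, 5′ to 3′, and the capitals mark the 7 codons of the stretch. Ackr4 lies at chr9:104099318-104099344 on the minus strand, Ackr3 at chr1:90214238-90214264 on the plus strand, Ccr7 at chr11:99145615-99145641 on the minus strand, Ccr9 at chr9:123779678-123779704 on the plus strand and Cxcr4 at chr1:128589497-128589523 on the minus strand. Ccr7 (the CCL19 and CCL21 receptor), Ccr9 (the CCL25 receptor) and Cxcr4 (the CXCL12 receptor) are the signalling receptors that share ligands with ACKR4 and ACKR3.
Ackr4: attGACAGATATTGGGCAATTACCaaa
Ackr3: gtgGACCGCTATCTCTCCATCACCtac
Ccr7: attGACCGCTACGTAGCCATCGTCcag
Ccr9: gtgGACAGATACATTGCCATTGTAcag
Cxcr4: ctgGACCGGTACCTCGCTATTGTCcac
Counted against Cxcr4, 5 of the 7 codons differed in Ackr4 and 2 of those encode another residue. Ackr3 likewise had 5 differing codons, of which 2 encode another residue. Ccr7 and Ccr9 each had 4 differing codons, of which 1 encodes another residue. The last of the 7 codons was the one that encoded another residue in both atypical receptors, ACC in Ackr4 and in Ackr3, with GTC in Ccr7 and Cxcr4 and GTA in Ccr9.

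The libraries held 8436185 (LY6D+ SCA1high replicate 2) to 20022077 counts (LY6D- SCA1high replicate 2), and 7512 to 12202 genes had at least 10 counts. Levels are given as CPM, the count scaled to a common library size with edgeR's TMM factors, and since tags come from transcript ends, they are compared between libraries and not between genes. As a description over genes, which are no replicates, Pearson's r between the pair of a population was 0.66 to 0.71, and for 10 of the 12 libraries the highest r was with a library outside their own population. For LY6D- SCA1low replicate 2 that library was LY6D- SCA1high replicate 1 (0.73, its own pair 0.68), and LY6D+ SCA1high replicate 2 was the shallowest of all. The gates were visible in their own genes: Ly6d was at 37.0 to 397 CPM in the 6 LY6D+ libraries, against 0.43 to 3.85 CPM in the 6 LY6D- libraries. Ly6a averaged 8.45, 50.2 and 213 CPM in LY6D+ SCA1low, SCA1int and SCA1high cells, and 46.8, 125 and 535 CPM in the LY6D- cells of the same gates.

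Ackr4 RNA was high in every LY6D+ library, somewhat lower in LY6D- SCA1int cells, and at most 5.08 CPM in LY6D- SCA1low and LY6D- SCA1high cells. In LY6D+ cells it had 267 and 345 CPM at SCA1low, 268 and 327 CPM at SCA1int, and 296 and 312 CPM at SCA1high. In LY6D- cells it had 0.86 and 1.21 CPM at SCA1low, 157 and 248 CPM at SCA1int, and 0.78 and 5.08 CPM at SCA1high. The LY6D+ libraries did not overlap the LY6D- libraries of the same gate at any SCA1 level, though at SCA1int the gap between 268 and 248 CPM was smaller than the spread within either pair.

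The counts behind the low values were small but not 0. LY6D- SCA1low cells gave 8 and 14 counts of Ackr4 and LY6D- SCA1high cells 10 and 120, where the LY6D+ libraries gave 2649 to 6580. The 2 LY6D- SCA1high libraries differed 6.50-fold from each other, the widest replicate ratio of the 6 populations for this gene. Elsewhere the replicates lay 1.05-fold to 1.58-fold apart.

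Population means put the size of the difference at each gate. At SCA1low, Ackr4 averaged 306 ± 55.1 CPM in LY6D+ cells and 1.04 ± 0.249 CPM in LY6D- cells (SD, n = 2 each), a 295-fold ratio. At SCA1high it averaged 304 ± 11.1 CPM in LY6D+ cells and 2.93 ± 3.04 CPM in LY6D- cells, a 104-fold ratio. At SCA1int it averaged 297 ± 42.0 CPM in LY6D+ cells and 202 ± 64.1 CPM in LY6D- cells, a 1.47-fold ratio, so the LY6D- level was 68.0% of the LY6D+ level.

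On the scale of log2(CPM + 1), which understates differences from low levels, the LY6D+ minus LY6D- difference was 7.24 at SCA1low, 0.55 at SCA1int and 6.28 at SCA1high. The SD of a difference between 1 library of each population, taken from the replicates, was 0.31, 0.51 and 1.25 on the same scale. The order of the 6 populations ran from LY6D+ SCA1low, SCA1high and SCA1int, whose means lay within each other's spread, through LY6D- SCA1int to LY6D- SCA1high and SCA1low. The LY6D- SCA1high and SCA1low means did not differ beyond their spread. Along SCA1 the level was even in LY6D+ cells and had its peak in the middle gate in LY6D- cells. These are bulk samples, in which fewer cells that express a gene and less RNA per cell cannot be told apart.

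**Figure D1:**
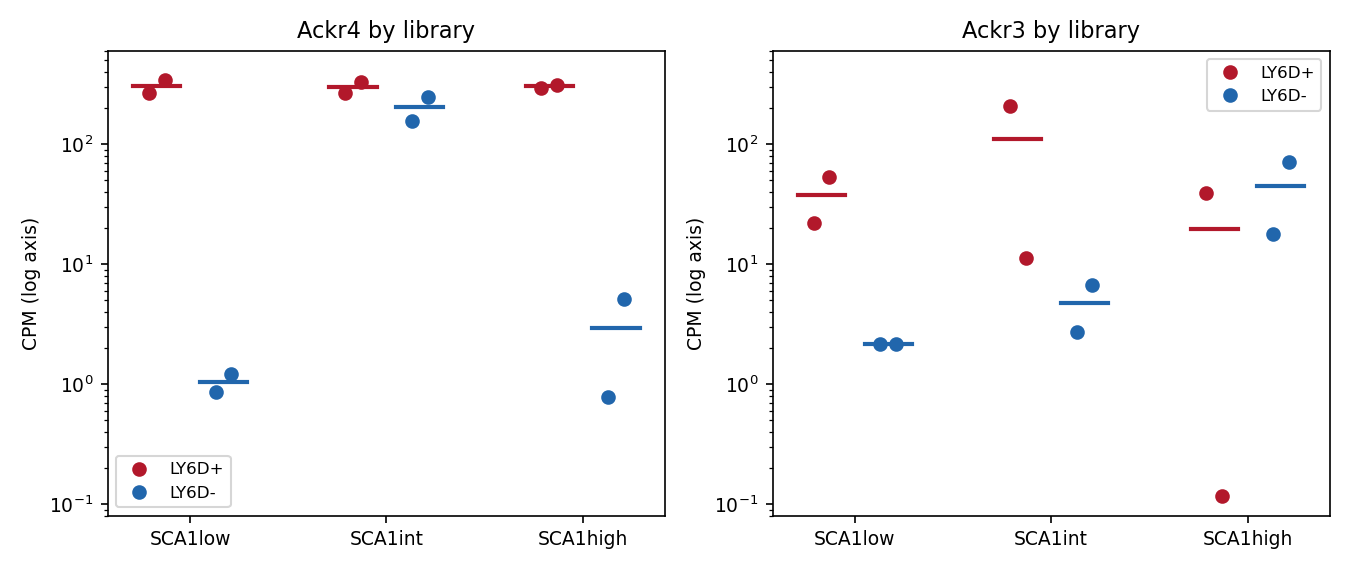
CPM on a log axis of Ackr4 (left) and Ackr3 (right) in each library, by SCA1 gate, with LY6D+ libraries in red and LY6D- libraries in blue and a bar at the mean of each pair. All 6 LY6D+ libraries of Ackr4 lie between 267 and 345 CPM, and of the LY6D- libraries only the SCA1int pair comes near them, while the pairs of Ackr3 are widely spread, with 1 count in LY6D+ SCA1high replicate 2.

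The median absolute log2 difference between the replicates of Ackr4 was 0.33 over the 6 populations, and that of Ackr3 was 1.58. Since Ackr4 was selected on these counts, its spread between replicates is a description and was not set against other genes. For Ackr3 the median over 4152 genes near its own mean was 1.39, and 41.2% of them had a larger value.

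The summed level of basal epithelial markers, like the level of Ackr4, was higher in LY6D+ cells than in LY6D- cells of the same gate. Among LY6D- cells it peaked at SCA1int. The labels call the cells luminal, and all 10 luminal markers had counts in every population. Their summed level was 13522 to 22392, 2066 to 2771 and 2083 to 2246 CPM in LY6D+ SCA1low, SCA1int and SCA1high cells, and 43306 to 84018, 27495 to 31613 and 2939 to 4746 CPM in the LY6D- cells of the same gates. What made up this sum differed between populations. In LY6D- SCA1low replicate 1, Spink1 and Pbsn had 71398 and 10655 of 84018 CPM. In LY6D+ SCA1high replicate 1 they had 742 and 105 of 2083 CPM, beside 705 CPM of Cdh1. Cdh1 had 562 to 748 CPM in LY6D+ and 288 to 632 CPM in LY6D- libraries. At SCA1high the median LY6D+ over LY6D- log2 fold change of the 10 was 0.52, opposite in direction to the sum. The 9 basal markers (Krt5, Krt14, Krt15, Krt17, Trp63, Itga6, Itgb4, Col17a1 and Lamb3) also had counts in every population, none at 0. Their sum was 2133 to 2820.0, 2831 to 4223 and 4197 to 4435 CPM in LY6D+ SCA1low, SCA1int and SCA1high cells.

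In LY6D- cells the basal sum was 87.3 to 241 CPM at SCA1low, 1592 to 1928 CPM at SCA1int and 519 to 632 CPM at SCA1high. The middle gate of the LY6D- cells was the highest for the basal list as for Ackr4, but LY6D- SCA1high cells had more of the basal list than LY6D- SCA1low cells while their Ackr4 means did not differ beyond their spread. In LY6D+ cells the sum was highest at SCA1high, mainly through Krt15, with 2626 and 2644 CPM at SCA1high and 1063 and 1223 CPM at SCA1low, whereas Itgb4 had 30.5 and 32.3 CPM at SCA1high and 79.4 and 83.5 CPM at SCA1low. The list's median log2 fold change of SCA1high over SCA1low within LY6D+ was 0.36, with 0 of 9 called by edgeR and 2 at an unadjusted p under 0.05. The part of basal cells in the Ackr4 levels was not tested.

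Of the 7 markers of lymphatic endothelium, where ACKR4 is known, Mmrn1 was at 0 in all 12 libraries. Prox1, the transcription factor that defines these vessels, had 0 to 1.59 CPM in LY6D+ libraries. In LY6D- libraries it had 2.26 and 7.36 CPM at SCA1low, 23.4 and 17.3 CPM at SCA1int, and 41.0 and 49.9 CPM at SCA1high. The other markers with counts did not keep that order in LY6D- libraries. Flt4 had 1.18 and 41.0 CPM at SCA1low, 0 and 0.34 CPM at SCA1int, and 22.8 and 4.70 CPM at SCA1high. Ccl21a, also listed, had 68.3 and 83.8 CPM at SCA1low and 0.39 and 7.79 CPM at SCA1high. Reln had 32.9 and 0.35 CPM at SCA1low and 0.16 and 1.31 CPM at SCA1high. Lyve1 had 0 and 2.86 CPM at SCA1low, 0.10 and 15.3 CPM at SCA1int, and 0 and 11.6 CPM at SCA1high. Pdpn, which basal cells also express, had 94.8 to 295 CPM in LY6D+ libraries and 2.58 to 78.2 CPM in LY6D- libraries. The summed level of the 7 was 95.4 to 298, 232 to 249.9 and 211 to 217 CPM in LY6D+ SCA1low, SCA1int and SCA1high cells, and 107 to 163, 73.7 to 114 and 70.9 to 135 CPM in LY6D- cells of the same gates. Pdpn made up nearly all of this sum in LY6D+ libraries. The part of lymphatic cells in the Ackr4 levels was not tested.

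The genes whose pattern was most like that of Ackr4 were named by the 5 highest Pearson correlations of log2(CPM + 1) over the 12 libraries, among the 8095 genes whose mean log2 CPM reached 3. They were Krt17 (0.965), a keratin of basal and stressed epithelium, the ribosomal protein pseudogene Rpl31-ps9 (0.963), Col7a1 (0.961), the collagen of anchoring fibrils, the pseudogene Rpl31-ps8 (0.960) and Tns4 (0.958), a tensin at focal adhesions. Krt17 had 42.4 to 213 CPM in LY6D+ libraries, against 0.43 to 3.18 CPM in LY6D- SCA1low and SCA1high libraries and 40.1 and 26.5 CPM in LY6D- SCA1int. Col7a1 had 51.6 to 154 CPM in LY6D+ libraries, against 0.31 to 2.75 CPM in LY6D- SCA1low and SCA1high libraries and 15.2 and 28.5 CPM in LY6D- SCA1int.

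The likeness described the split between populations and not the levels inside LY6D+ cells. Within the 6 LY6D+ libraries alone the correlations of Krt17, Rpl31-ps9, Col7a1, Rpl31-ps8 and Tns4 with Ackr4 were 0.50, -0.309, -0.330, -0.451 and 0.511. Rpl31-ps9 and Rpl31-ps8 are near copies of 1 ribosomal gene, so reads of that gene may be counted in them. Of these names, 3 were shared with the top 5 at a pseudocount of 4 and 1 with the top 5 by Spearman's rho.

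**Figure D2:**
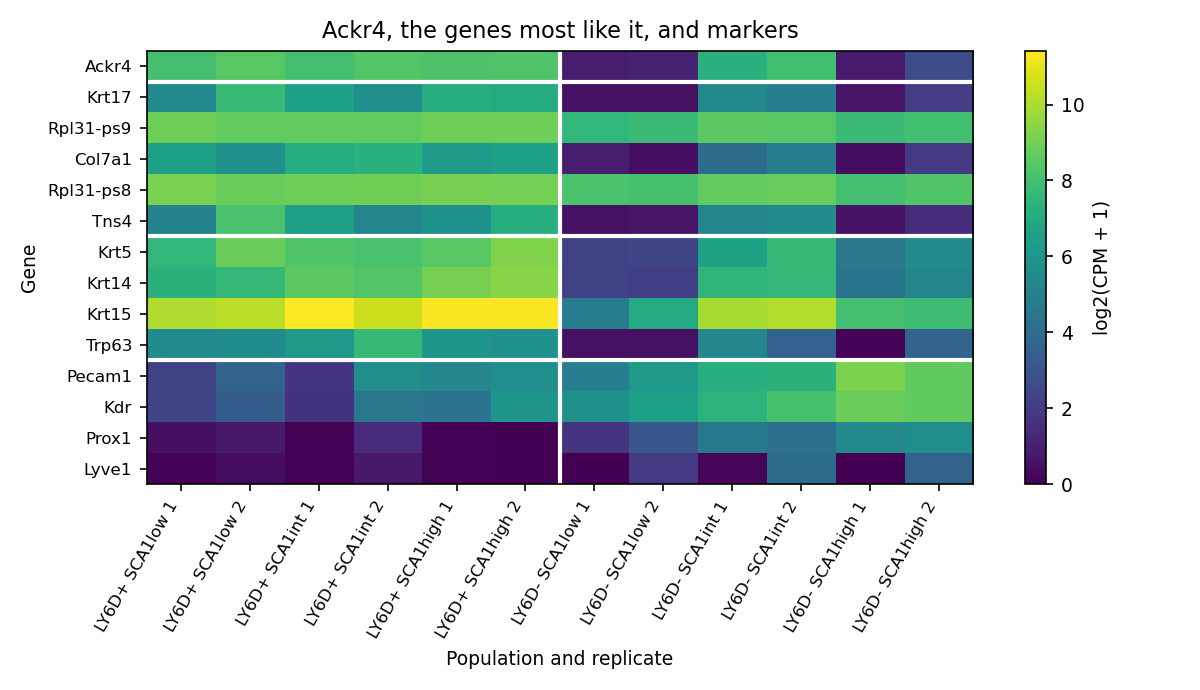
Log2(CPM + 1) as colour in each of the 12 libraries (columns, LY6D+ left of LY6D-) for Ackr4, the 5 genes most like it, 4 basal markers, 2 blood endothelial markers (Pecam1 and Kdr) and 2 lymphatic markers (Prox1 and Lyve1), with white lines between the sets. The Ackr4 row is bright in the 6 LY6D+ and the 2 LY6D- SCA1int columns and dark in the other LY6D- columns, as are Krt17, Col7a1 and Tns4.

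In the annotation, Ackr4 (chromosome 9, 104084157 to 104126933, minus strand, GRCm38) lies inside Acad11, an acyl-CoA dehydrogenase gene on the plus strand (104063377 to 104127725). Of 5380 exon bases of Ackr4, 479 are shared with exons of Acad11. The strand setting of the counting is not given in the sources used here, so reads in the shared bases could belong to either gene. Acad11 itself had 17.7 and 54.8 CPM in LY6D+ SCA1low, 71.0 and 16.9 CPM in LY6D+ SCA1int and 26.4 and 0.12 CPM in LY6D+ SCA1high libraries. In LY6D- libraries it had 60.8 and 6.67 CPM at SCA1low, 0.41 and 7.12 CPM at SCA1int and 51.0 and 24.8 CPM at SCA1high. Its levels overlapped between LY6D+ and LY6D- cells at SCA1low and SCA1high, where those of Ackr4 were far apart, and did not overlap at SCA1int. Ackr3 (chromosome 1, 90203980 to 90216751, plus strand) overlaps no other annotated gene.

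Ackr3 RNA was present in all 12 libraries, its replicates differed widely, and no difference between populations passed the test. In LY6D+ cells it had 22.2 and 52.7 CPM at SCA1low, 207 and 11.3 CPM at SCA1int, and 38.9 and 0.12 CPM at SCA1high, the last from a single count. In LY6D- cells it had 2.15 and 2.16 CPM at SCA1low, 2.73 and 6.69 CPM at SCA1int, and 17.7 and 71.6 CPM at SCA1high. At SCA1low and SCA1int the LY6D+ pair lay wholly above the LY6D- pair, and at SCA1high the pairs overlapped.

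As means, Ackr3 stood at 37.5 ± 21.6, 109 ± 139 and 19.5 ± 27.4 CPM in LY6D+ SCA1low, SCA1int and SCA1high cells. The LY6D- means at these gates were 2.16 ± 0.00939, 4.71 ± 2.80 and 44.7 ± 38.1 CPM (SD, n = 2 each). In order, LY6D+ SCA1int came first, then LY6D- SCA1high, LY6D+ SCA1low, LY6D+ SCA1high, LY6D- SCA1int and LY6D- SCA1low. Each neighbouring pair in that order lay within the spread of 1 or both. In 3 populations the SD was larger than the mean or close to it, and the replicates differed 18.4-fold in LY6D+ SCA1int and 4.03-fold in LY6D- SCA1high.

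The tests were edgeR's quasi-likelihood tests on counts over all 12 libraries, with p-values adjusted by Benjamini-Hochberg over 15270 genes and a call at an adjusted p under 0.05. Averaged over the SCA1 levels, Ackr3 was 2.49 ± 1.01 (log2 fold change ± SE, 95% interval 0.41 to 4.56) in LY6D+ over LY6D- cells, with an edgeR p of 0.0208 and an adjusted p of 0.154. It was not called, where 2.48% of the tested genes were. Single libraries moved this value: without LY6D+ SCA1high replicate 1 it was 0.07, and without LY6D+ SCA1int replicate 1 it was 1.41.

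By gate, the LY6D+ over LY6D- fold change of Ackr3 was 4.11 ± 1.89 on the log2 scale at SCA1low (edgeR adjusted p = 0.408), 4.54 ± 1.92 at SCA1int (0.665) and -1.19 ± 1.68 at SCA1high (0.862). None was called, and of all tested genes 0.472%, 0.203% and 0.262% were called at these gates. The difference between the SCA1high and SCA1low values, which is the interaction, was -5.30 ± 2.5 (95% interval -10.43 to -0.18), with an edgeR p of 0.0430 and an adjusted p of 0.650. Of all tested genes, 0.0393% were called for that interaction.

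Along SCA1, the log2 fold change of Ackr3 in SCA1high over SCA1low was -0.94 ± 1.67 within LY6D+ cells (edgeR adjusted p = 0.867), 4.37 ± 1.91 within LY6D- cells (0.689) and 1.71 ± 1.21 as an average of both (0.569). These 3 comparisons called 0.327%, 0.635% and 1.21% of tested genes, and Ackr3 in none of them. Without LY6D+ SCA1high replicate 1 the average was -1.91, and the value within LY6D+ cells was -8.22. Of the 8 comparisons of Ackr3, 5 had an unadjusted edgeR p under 0.05 and 0 were called after adjustment, with DESeq2 as with edgeR. After adjustment, a difference in Ackr3 was not detectable at this replication.

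**Figure D3:**
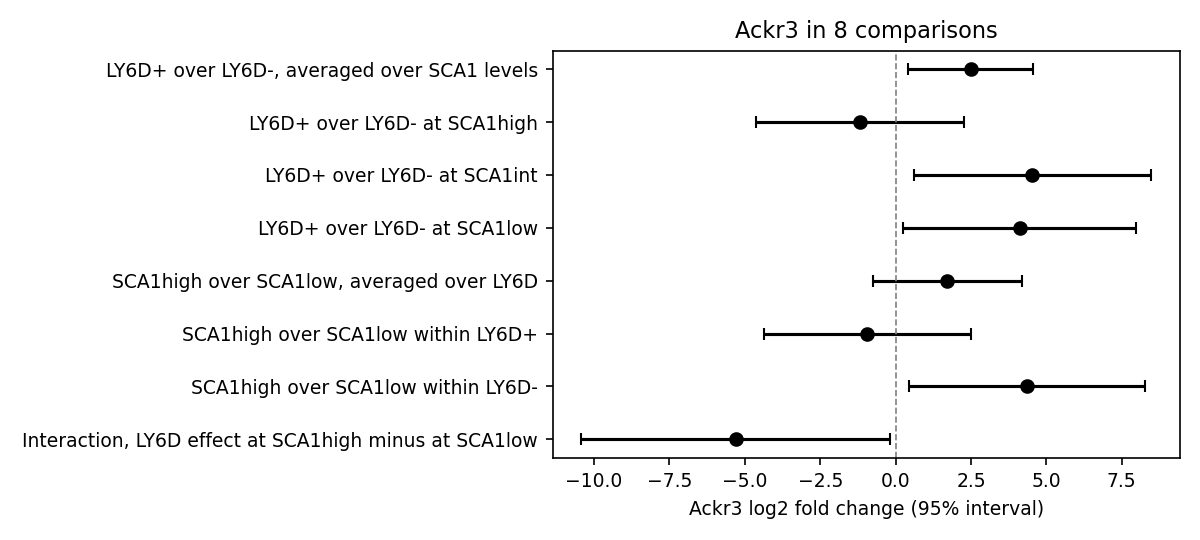
Log2 fold change of Ackr3 in the 8 comparisons, with points at the edgeR estimates and bars for 95% intervals that are not adjusted for multiple genes, and a dashed line at 0. The widest bar, from -10.43 to -0.18, is that of the interaction, and none of the 8 values was called after adjustment over all genes.

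Among the 5 genes most like Ackr3 over the 12 libraries were Bmp2 (Pearson r 0.914), a secreted bone morphogenetic protein, Dars (0.909), the aspartyl-tRNA synthetase, Hnrnpd (0.881), an RNA-binding protein, and Slc4a1ap (0.876). Of the 5, 3 remained in the top 5 at a pseudocount of 4 and 4 by Spearman's rho. Bmp2 had 0.12 CPM, and Dars and Slc4a1ap 0, in LY6D+ SCA1high replicate 2, the shallow library with 1 count of Ackr3. Without that library the correlations of Bmp2, Dars, Hnrnpd and Slc4a1ap with Ackr3 were 0.90, 0.902, 0.858 and 0.835.

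Bmp2 had 61.1 CPM in LY6D+ SCA1int replicate 1, the library highest for Ackr3, and 48.2 CPM in LY6D- SCA1high replicate 2, the next for Ackr3. It had 1.27 and 8.05 CPM in the partners of these libraries. The replicates of Bmp2 differed there by 48.1-fold and 5.99-fold. Since Bmp2 was picked for its likeness to Ackr3 over these same libraries, nothing further is read from this. Acad11 was also at 1 count in LY6D+ SCA1high replicate 2.

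The wider chemokine system was taken as 80 genes without Ackr4: other atypical receptors, the ligands of ACKR4 and ACKR3, the signalling receptors that share those ligands, arrestins and receptor kinases, and the other chemokines and receptors. Of these, 77 were found in the table, 56 had at least 1 count and 37 passed the filter on low counts and were tested. In the 8 comparisons the edgeR test called 1 of 37 for the LY6D average, 0 at SCA1high, 0 at SCA1int, 1 at SCA1low, 1 for the SCA1 average, 0 within LY6D+, 1 within LY6D- and 0 for the interaction. Over all tested genes the called shares were 2.48%, 0.262%, 0.203%, 0.472%, 1.21%, 0.327%, 0.635% and 0.0393% in that order. Since 1 call is the smallest count above 0 that 37 genes can give, nothing is read from these counts about the lists. Called higher were 1.27% of tested genes for the LY6D average, 0.38% at SCA1low, 0.432% for the SCA1 average and 0.242% within LY6D-, and called lower were 1.21% for the LY6D average and 0.779% for the SCA1 average.

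At an unadjusted edgeR p under 0.05, the chemokine genes numbered 11, 8, 2, 9, 12, 5, 7 and 7 of 37 in the same order of comparisons, beside 20.4%, 11.7%, 6.17%, 12%, 12.1%, 8.61%, 6.65% and 7.6% of all tested genes. Their median log2 fold change was -0.38 for the LY6D average, against 0.03 over all tested genes, and 1.70 for the SCA1 average, against 0.15. With the 11 genes that were at 0 in a whole population set to the bound that 3 counts per library allow, these medians were -0.22 and 1.70. The 4 calls, all of them higher, fell on 2 genes, both ligands of ACKR3.

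Adm, the gene of the vasoactive peptide adrenomedullin, rose in LY6D+ over LY6D- cells. It had 179 and 214 CPM at SCA1low, 202 and 189 CPM at SCA1int, and 174 and 69.6 CPM at SCA1high in LY6D+ libraries. In LY6D- libraries it had 3.33 and 16.1 CPM at SCA1low, 88.2 and 81.2 CPM at SCA1int, and 42.0 and 53.8 CPM at SCA1high. The LY6D+ pair was above the LY6D- pair at all 3 gates, and within LY6D- cells the middle gate was the highest, as for Ackr4 and for the summed basal markers. The part of basal cells in the Adm levels was not tested.

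The average LY6D+ over LY6D- log2 fold change of Adm was 2.30 ± 0.50 (edgeR adjusted p = 0.00880), and at SCA1low it was 4.33 ± 0.94 (adjusted p = 0.0217). The values at SCA1int and SCA1high, 1.21 ± 0.83 and 1.35 ± 0.83, were not called by edgeR (adjusted p = 0.686 and 0.50). The interaction, -2.99 ± 1.18, was not called either (edgeR adjusted p = 0.650). The call at SCA1low was lost without LY6D- SCA1low replicate 1, where the edgeR value was 3.38 (adjusted p = 0.353), and with RLE size factors (3.97, adjusted p = 0.0578). Over 19 alternatives the adjusted p of edgeR, DESeq2 or limma at SCA1low ran from 0.000405 to 0.353, and that of the average from 4.66e-05 to 0.0333.

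Cxcl12, the chemokine that CXCR4 and ACKR3 share and a product of stroma and endothelium, rose with SCA1. It had 44.1 and 15.1, 55.4 and 90.8, and 165 and 233 CPM in LY6D+ SCA1low, SCA1int and SCA1high libraries. In LY6D- libraries it had 15.1 and 57.2, 78.2 and 48.6, and 372 and 457 CPM at the same gates. All 4 SCA1high libraries lay above the 8 others, and the LY6D+ and LY6D- pairs overlapped at SCA1low and SCA1int.

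The SCA1high over SCA1low log2 fold change of Cxcl12 averaged 3.13 ± 0.58 (edgeR adjusted p = 0.00190). It was 2.75 ± 0.80 within LY6D+ cells, where it was not called by edgeR (adjusted p = 0.301) but was by DESeq2, and 3.52 ± 0.83 within LY6D- cells (edgeR adjusted p = 0.0382). The difference between the LY6D+ and LY6D- values was -0.77 ± 1.07 and not called (edgeR adjusted p = 0.897). The call within LY6D- cells was lost without either LY6D- SCA1high library (edgeR adjusted p = 0.0895 and 0.258) and without LY6D- SCA1low replicate 1 (2.71, adjusted p = 0.598), with RLE size factors (adjusted p = 0.0810) and with limma (adjusted p = 0.0795). Over 19 alternatives the adjusted p of edgeR, DESeq2 or limma ran from 0.00436 to 0.598 within LY6D- cells and from 1.75e-05 to 0.0112 for the average.

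In LY6D- cells the summed level of blood endothelial markers was highest at SCA1high, as that of Cxcl12 was. All 12 listed markers had counts in every population, although CD31 was a lineage gate. Their summed level was 56.1 to 163, 30.2 to 271 and 222 to 463 CPM in LY6D+ SCA1low, SCA1int and SCA1high cells, and 316 to 782, 1396 to 1607 and 4078 to 4681 CPM in LY6D- cells of those gates. Of the 12, edgeR called 5 higher and 0 lower in SCA1high over SCA1low on average, beside 0.432% and 0.779% of all tested genes. Within LY6D- cells it called 0 of the 12, with 8 at an unadjusted p under 0.05, beside 6.65% of all tested genes. The median log2 fold change there was 3.26, against 0.53 over all tested genes. Within LY6D+ cells 0 were called higher and 1 lower. In LY6D+ over LY6D- on average, 0 were called higher and 10 lower, beside 1.27% and 1.21% of all tested genes. Members of the fibroblast list differed in direction in LY6D+ cells. Col1a1 had 24.5 and 113 CPM at SCA1high and 0.38 and 2.57 CPM at SCA1low. Col3a1 had 37.6 and 128 CPM at SCA1high and 0.996 and 4.90 CPM at SCA1low. Acta2 ran the other way, with 7.51 and 0.24 CPM at SCA1high and 17.5 and 33.2 CPM at SCA1low. Dcn overlapped, with 641 and 857 CPM at SCA1high and 726 and 807 CPM at SCA1low. In LY6D- cells Col1a1 had 49.6 CPM in both SCA1high libraries and 3.66 and 7.79 CPM at SCA1low. The 11 fibroblast and smooth muscle markers, of which Lum, Pdgfra and Cnn1 were at 0 in LY6D- SCA1low and Pdgfra in LY6D- SCA1int, summed to 789.9 to 882, 859 to 949 and 816 to 1303 CPM in LY6D+ SCA1low, SCA1int and SCA1high cells. In LY6D- cells of these gates they summed to 244 to 312, 633 to 803 and 470 to 593 CPM, with Dcn the largest single share. Their median log2 fold change over the 9 that were tested was 2.87 for the SCA1 average and 4.19 within LY6D+, with 0 called by edgeR and 4 and 2 at an unadjusted p under 0.05. The part of endothelial or stromal RNA in the Cxcl12 levels was not tested.

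**Figure D4:**
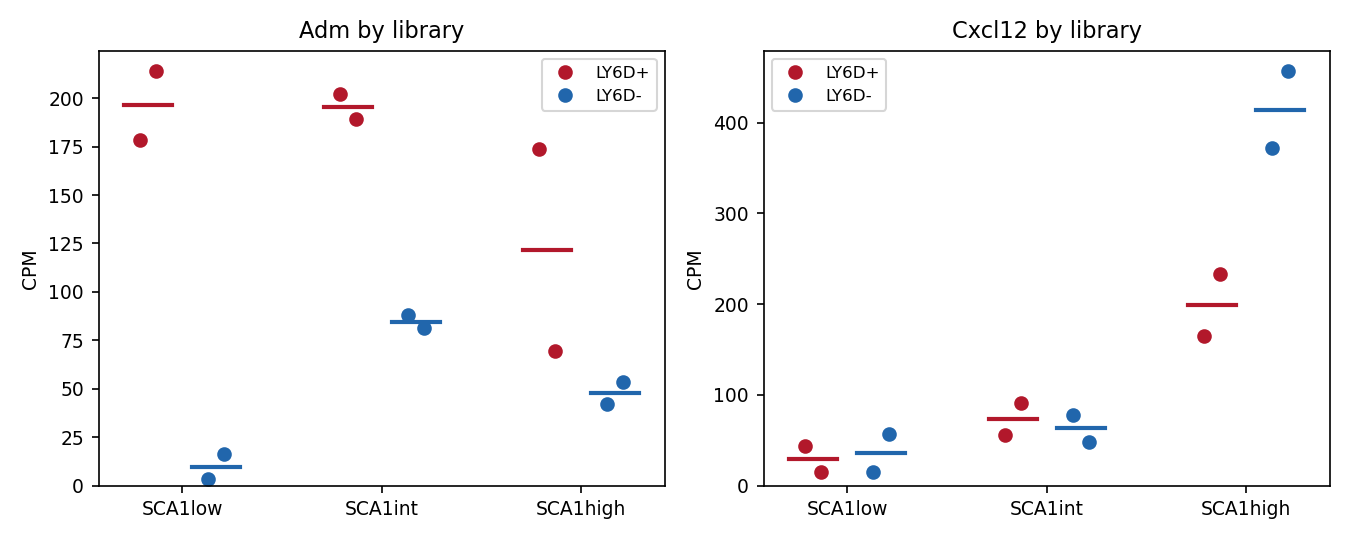
CPM of Adm (left) and Cxcl12 (right) in each library by SCA1 gate, with LY6D+ libraries in red, LY6D- libraries in blue and bars at the means of the pairs. Adm is higher in LY6D+ than in LY6D- libraries at each gate, and the 4 SCA1high libraries of Cxcl12, at 165 to 457 CPM, lie above the rest.

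The edgeR test called none of the other ACKR3 ligands in the 8 comparisons. Of the 7 listed, 5 were tested, Pdyn had no count and Pnoc 2 counts in all. Mif, a cytokine, ranged from 0.39 to 82.2 CPM, with its lowest level in LY6D- SCA1high replicate 1 beside 27.7 CPM in replicate 2. Cxcl11 reached 30.5 CPM in LY6D+ SCA1int replicate 1 beside 0.11 CPM in its replicate. Penk, the opioid precursor, had 43.4 and 108 CPM in LY6D+ SCA1high and 118 and 119 CPM in LY6D- SCA1high libraries, and at most 18.8 CPM in the others. The 4 SCA1high libraries lay above the rest. Its SCA1high over SCA1low average, 4.54 ± 1.23, was not called by edgeR (adjusted p = 0.0712), but 9 of 19 alternatives called it, DESeq2, the replicate block (adjusted p = 0.0271) and 6 of the 12 fits without 1 library among them, with adjusted p from 0.000382 to 0.259. The median log2 fold change of the 5 tested ACKR3 ligands was -0.38 for the LY6D average and 0.80 for the SCA1 average, against 0.03 and 0.15 over all tested genes.

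RNA of ACKR4 ligands was low or at 0 in most populations. Of 7 listed, Ccl19, Ccl20 and Ccl22 had 0 counts in all 12 libraries, and Ccl21d was not matched in the table. Ccl21a, a lymphoid chemokine, had 0 to 0.93 CPM in the 6 LY6D+ libraries, 1.03 and 2.49 CPM in LY6D- SCA1int and 0.39 and 7.79 CPM in LY6D- SCA1high. It had 68.3 and 83.8 CPM in LY6D- SCA1low, the population with the lowest mean of Ackr4, 1.04 CPM. The LY6D- SCA1low pair stood above all other libraries.

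Ccl21a was not called by edgeR in LY6D+ over LY6D- cells, on average (-5.25 ± 1.62, adjusted p = 0.0760) or at SCA1low (-7.32 ± 3.03, adjusted p = 0.408). The average was called in 3 of 19 alternatives, by edgeR with the replicate block (adjusted p = 0.0412) and without LY6D- SCA1high replicate 1, and by DESeq2, with adjusted p from 4.20e-05 to 0.219. DESeq2 also called Ccl21a at SCA1low (adjusted p = 0.000977), at SCA1high (0.0272) and for the SCA1 average (0.0442). Ccl21b had 23.02 CPM in LY6D- SCA1low replicate 1 and at most 0.76 CPM elsewhere. Ccl21a and Ccl21b are near-identical copies, so which copy was read is uncertain. The 3 tested ACKR4 ligands had a median of -5.25 for the LY6D average, or -2.10 with genes at 0 in a population at their bound. Ccl25, the thymic and gut chemokine, had 28.5 CPM in LY6D+ SCA1int replicate 2, 15.7 CPM in LY6D- SCA1low replicate 2 and 5.46 CPM in LY6D- SCA1int replicate 1. Its 0 or under 1 CPM in the other 9 libraries included the replicate of each. Of the alternatives, only DESeq2 called Ccl25. It did so for the LY6D average (adjusted p = 2.46e-08), at SCA1high (2.77e-05) and at SCA1low (4.39e-08).

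The signalling receptors for these ligands were scarce. Ccr7, Ccr6 and Cxcr3 had 0 counts in all libraries, and Ccr9 and Ccr4 had 2 counts each in all. Cxcr4 reached 12.6 CPM in LY6D+ SCA1high replicate 2, 9.55 CPM in LY6D+ SCA1int replicate 1, 13.4 CPM in LY6D- SCA1int replicate 1 and 9.91 CPM in LY6D- SCA1high replicate 2, and stayed under 1 CPM in each partner library. Cd74, the MIF receptor and the invariant chain, reached 31.0 CPM in LY6D+ SCA1high replicate 2. Calcrl, the adrenomedullin receptor, was at 0 in both LY6D+ SCA1high libraries, against 24.7 and 15.0 CPM in LY6D- SCA1high libraries, and was not called there by edgeR (adjusted p = 0.405), though it was by DESeq2. At most 0.54 CPM of Calcrl was found in LY6D+ libraries. The 3 tested receptors had a median of 2.17 for the LY6D average and 4.15 for the SCA1 average, or 0.45 and 3.56 with genes at 0 in a population at their bound.

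The other atypical receptors did not share the pattern of Ackr4. Ackr1, the receptor of venular endothelium and red cells, had at most 7.64 CPM in LY6D+ libraries, against 2.73 to 30.3 CPM in LY6D- SCA1low and SCA1int libraries and 148 and 198 CPM in LY6D- SCA1high. The LY6D- SCA1high pair, which was also highest for the blood endothelial markers, stood apart from all other libraries. Ackr1 was not called by edgeR in LY6D+ over LY6D- cells on average (-3.49 ± 1.05, adjusted p = 0.0697) or at SCA1high (-5.40 ± 1.97, adjusted p = 0.405). DESeq2 called it at SCA1high (adjusted p = 0.00807) and at SCA1low (adjusted p = 0.0159). The average was called in 6 of 19 alternatives, which were DESeq2 and 5 of the 12 edgeR fits without 1 library (without LY6D+ SCA1high replicate 1, LY6D+ SCA1int replicate 2, LY6D+ SCA1low replicate 2, LY6D- SCA1int replicate 1 or LY6D- SCA1low replicate 1), with adjusted p from 0.00133 to 0.224. Ackr2, which takes up inflammatory CC chemokines, had 0 counts. Ccrl2, Gpr182 and Pitpnm3, relatives or candidate members of the class, were tested and not called by edgeR in the 8 comparisons, and DESeq2 called Gpr182 for the SCA1 average. The median log2 fold change of the 5 tested receptors without Ackr4 was -0.17 for the LY6D average and 4.22 for the SCA1 average.

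Arrestins and kinases, through which atypical receptors are taken into the cell, were not all present, and the main edgeR test called none. Arrb1 and Grk2 had counts in all 12 libraries, Grk6 in 9, Arrb2 in 7 and Grk3, which was not tested, in 5. Arrb2, an arrestin, had 0 to 0.16 CPM in LY6D+ libraries and 0.086 to 28.8 CPM in LY6D- libraries. Of 10 names, 8 were matched (the others are older names of Grk2 and Grk3) and 7 tested. Arrb1, an arrestin, had 0.92 and 67.1, 7.01 and 74.2, and 61.7 and 176 CPM in LY6D+ SCA1low, SCA1int and SCA1high libraries, and 4.30 and 12.1, 17.8 and 102, and 89.9 and 96.7 CPM in LY6D- libraries of the same gates. Its SCA1high over SCA1low average was 2.66 ± 1.01 (edgeR adjusted p = 0.299). Grk2, a receptor kinase, ranged from 2.41 to 22.7 CPM in LY6D+ and from 4.50 to 59.8 CPM in LY6D- libraries, with an average LY6D+ over LY6D- value of -1.88 ± 1.03 (edgeR adjusted p = 0.311). Ramp2, a partner of the adrenomedullin receptor, had 4.75 to 60.2 CPM in LY6D+ and 29.8 to 175 CPM in LY6D- libraries, with an average of -1.57 ± 0.68 (edgeR adjusted p = 0.179). The median of the 7 was -1.88 for the LY6D average (-1.57 with bounds for genes at 0 in a population) and 1.70 for the SCA1 average. By DESeq2, Arrb2, Grk2, Ramp2 and Ramp3 were called for the LY6D average, Grk6 at SCA1high, Arrb2 at SCA1int and Arrb2 and Ramp2 at SCA1low. With edgeR, Arrb2 was called for the LY6D average without the filter on low counts, and Arrb1 for the SCA1 average without LY6D+ SCA1low replicate 2.

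Among 29 other chemokine ligands, 13 were tested by edgeR and 0 called in the 8 comparisons, and 8 had no count. DESeq2 called Cxcl14 for the LY6D average, Ccl7 at SCA1high, Cxcl14 and Cxcl15 at SCA1low, Cxcl10 for the SCA1 average, Cxcl15 within LY6D+ and Cx3cl1 for the interaction. Cxcl1, a neutrophil attractant, had 43.9 and 46.7 CPM in LY6D+ SCA1high and 16.9 and 182 CPM in LY6D+ SCA1low libraries, which overlapped. In LY6D- libraries it had 277 and 205 CPM at SCA1high, above 10.9 and 37.9 CPM at SCA1low. The SCA1high over SCA1low value within LY6D- cells was 3.31 ± 1.09 and not called by edgeR (adjusted p = 0.290). Cxcl10, an interferon-induced chemokine, had a log2 fold change of 2.47 ± 0.79 in SCA1high over SCA1low on average, also without a call (edgeR adjusted p = 0.178), and was called in 3 of 19 alternatives, with adjusted p from 0.0359 to 0.615. Ccl27a, a chemokine of keratinocytes, had 3.88 to 139.8 CPM in LY6D+ and 8.92 to 83.2 CPM in LY6D- libraries.

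Of 13 other chemokine receptors, 5 had no count and 1, Cxcr5, the CXCL13 receptor of B cells, was tested. It had 44.4 CPM in LY6D+ SCA1low replicate 2 and 0 in replicate 1, and was not called. Cxcr2 reached 0.85 CPM at most and was not tested. The 12 leukocyte markers summed to 4.92 to 54.8 CPM in LY6D+ and to 6.69 to 50.2 CPM in LY6D- libraries, with Cd3e at 0 in all 12.

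**Figure D5:**
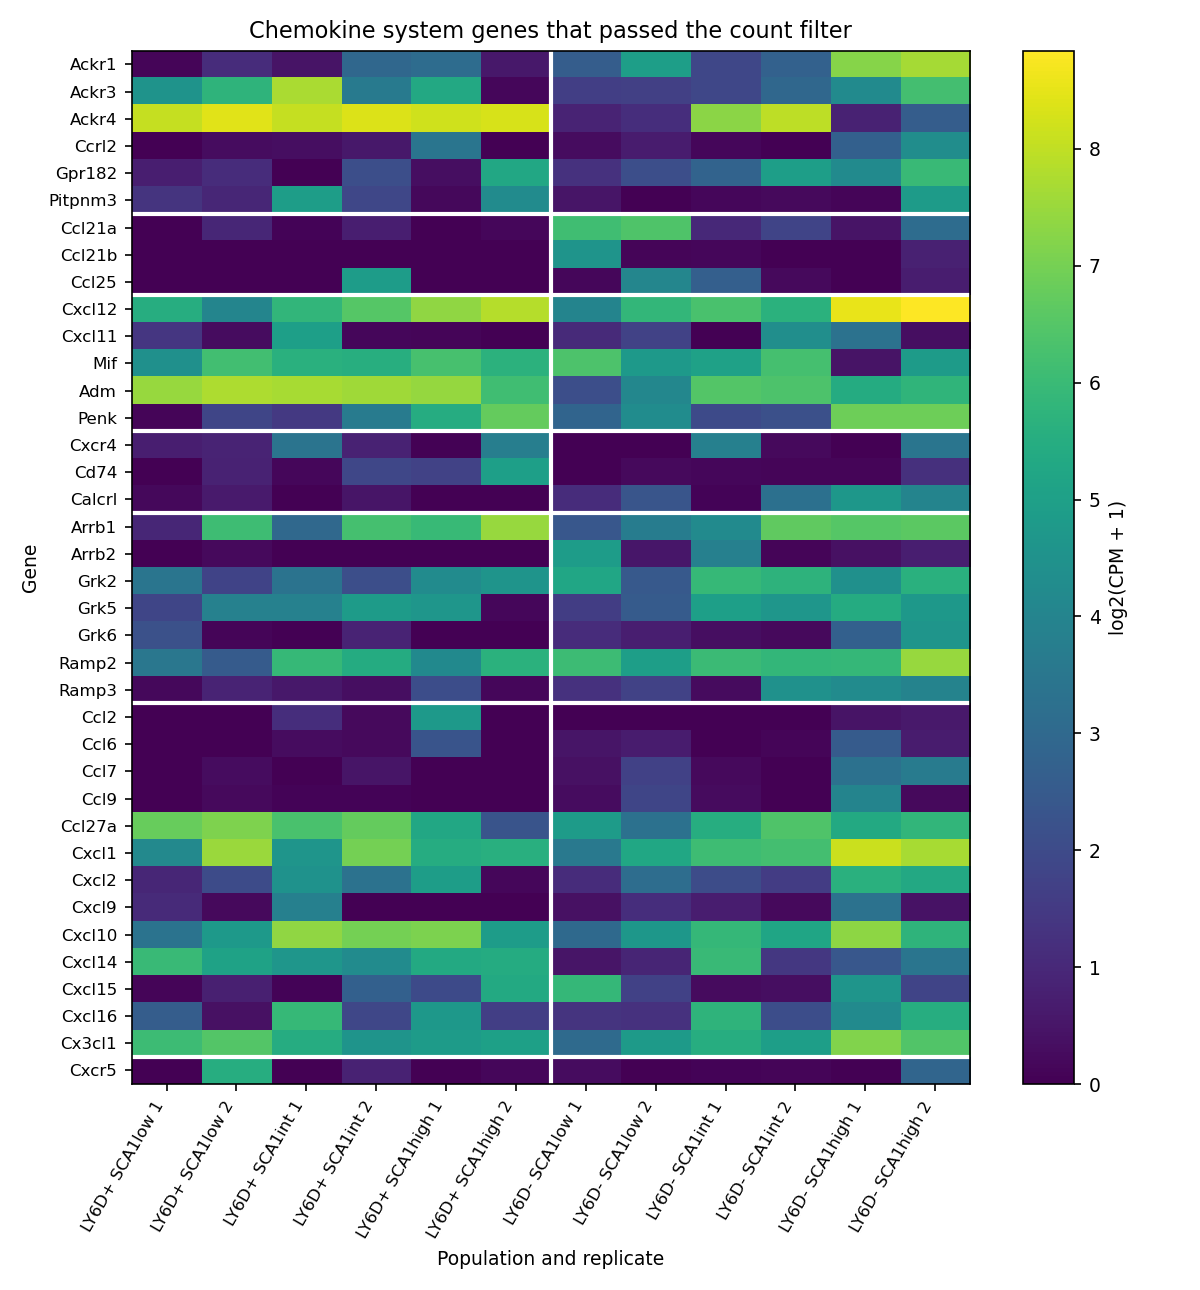
Log2(CPM + 1) as colour for the chemokine system genes that passed the filter on low counts, in the 12 libraries (columns, LY6D+ left of LY6D-), with white lines between gene lists: atypical receptors, ACKR4 ligands, ACKR3 ligands, shared receptors, arrestins and kinases, other ligands and other receptors. Ackr4 is bright in 8 columns, Ccl21a in the 2 LY6D- SCA1low columns and Cxcl12 most of all in the SCA1high columns, and many other genes are bright in 1 library of a pair.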

How the data were processed

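RNA from the 6 sorted populations went into QuantSeq 3′ FWD libraries from 10 to 20 ng of total RNA, per the labels' protocols, which name no molecular identifiers. The submitters' processing notes list STAR 2.5.1, featureCounts and Subread, edgeR, Picard 1.96, SAMtools 1.3.1 and cutadapt 1.9.1, and build mm10. The strand setting and annotation of the counting are not given here by any source. The authors deposited raw counts per gene, used here, and a signal table of normalised values (counts over edgeR's TMM effective library size), used in 1 alternative.

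In R 4.3.3, edgeR 4.0.16 was run on the deposited counts (TMM, filterByExpr by population, 15270 genes, 1 mean per population, glmQLFit, glmQLFTest, Benjamini-Hochberg adjustment). Residual degrees of freedom were 6 and the common dispersion 1.65. The prior degrees of freedom, the weight given to the spread over other genes, were 21.8. The script was checked on simulated counts. Symbols were matched for 48349 identifiers, and the 446 others held 0.475% of counts. Coordinates are from GENCODE M21.

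Named genes were the members, up to 4 called and the 3 most abundant genes of each list, the 5 genes most like each member, and overlapping genes, of which 2 are not reported here. Penk, Cxcl11, Ccrl2, Gpr182, Pitpnm3, Pnoc, Ccr4, Ccr9, Prox1, Pdpn, Spink1, Pbsn, Cdh1, Itgb4, Dcn, Acta2, Col1a1, Col3a1, Grk3, genes called by an alternative alone and genes at 0 were added after their values were seen. Flt4, Lyve1, Reln and Itga6 were likewise added after their values were seen. The members and lists were chosen with earlier results of these data known. Alternatives were RLE factors, library size, no filter, DESeq2 1.42.0, limma 3.58.1 on log2 of the deposited values plus 1, a replicate block, each library left out, other pseudocounts, and, chosen after seeing the data, LY6D- SCA1low replicate 2 and LY6D+ SCA1high replicate 2 left out together.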

Additional observations from a re-analysis of the deposited data

How the results depend on the processing

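Each population has 2 libraries and the common dispersion is 1.65, so only large and even differences could be called. Ackr4 kept its direction at every gate under all alternatives run. Since Ackr4 was selected on these same counts, this describes its values and lends the difference no support. The log2 difference at SCA1low was 7.90 with a pseudocount of 0.25 and 5.94 with 4, and with 1 library left out it ranged from 7.04 to 7.41 at SCA1low, 0.26 to 0.92 at SCA1int and 5.65 to 7.42 at SCA1high. Ackr3 was called by no alternative in any of the 8 comparisons, DESeq2 and limma included. Its direction turned in SCA1high over SCA1low within LY6D+ cells with both doubted libraries left out (0.062, an alternative chosen after seeing the data), and on average without LY6D+ SCA1high replicate 1. With 1 library left out, its log2 fold change ranged from 0.07 to 2.85 for the LY6D average, -8.48 to -0.06 at SCA1high, 1.29 to 5.49 at SCA1int, 3.50 to 4.51 at SCA1low, -1.91 to 2.11 for the SCA1 average, -8.22 to -0.18 within LY6D+, 2.98 to 4.98 within LY6D- and -12.61 to -4.16 for the interaction. The cause was not tested.

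The number of chemokine genes called was 1, 0, 0, 1, 1, 0, 1 and 0 in the 8 comparisons (LY6D average, SCA1high, SCA1int, SCA1low, SCA1 average, within LY6D+, within LY6D-, interaction), and DESeq2 called 10, 6, 1, 8, 5, 3, 1 and 1. Over all genes edgeR called 379, 40, 31, 72, 185, 50, 97 and 6 in that order, and DESeq2 2394, 1388, 737, 1968, 1290, 1330, 596 and 669. Without the filter on low counts the LY6D average had 2 chemokine genes. With RLE size factors the counts at SCA1low and within LY6D- cells were 0. Library size as the only scaling gave 3 for the SCA1 average, and both doubted libraries left out gave 2. The limma test on deposited values gave 0 within LY6D- cells. With 1 library left out the counts ranged from 1 to 2 for the LY6D average, 0 to 1 at SCA1low, 1 to 3 for the SCA1 average and 0 to 1 within LY6D-, and were 0 in the other 4 comparisons. Adm for the LY6D average and Cxcl12 for the SCA1 average were called in all 19 alternatives. Relative to TMM, RLE factors moved the median of all genes by -0.12, -0.40, -0.27 and -0.44 log2 for the LY6D average, SCA1low, the SCA1 average and within LY6D-, and library size moved it by 0.48 for the SCA1 average and 0.51 within LY6D-. The share of calls that were higher was 51.2% with TMM and 35.8% with RLE for the LY6D average, 80.6% and 55.6% at SCA1low, and for the SCA1 average 35.7% with TMM, 18.2% with RLE and 70.5% with library size.

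Whether the replicate numbers pair the libraries is not settled by the labels. Each number goes with 1 prefix of the deposited column names in all 6 populations, and no label says what the prefix stands for (an animal, a day or a batch). Deviations of libraries with the same number correlated at -0.20 to 0.13 over 15 pairs of populations, 2 of them over 0.1. With 2 libraries per population and a common dispersion of 1.65, low correlations cannot show that a shared effect is absent. The main fit left the replicate number out, and a block on it was an alternative. With the block edgeR called 423, 65, 43, 100, 245, 65, 128 and 8 genes in the 8 comparisons, in the order above. Without it the calls were fewer in each, at 379, 40, 31, 72, 185, 50, 97 and 6. With the replicate number as a block, 2 chemokine genes were called for the LY6D average (Adm and Ccl21a) and 2 for the SCA1 average (Cxcl12 and Penk), and Ackr3 was 2.32 for the LY6D average (edgeR adjusted p = 0.303).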
